A study of Mus musculus with 6 samples.

Results

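The genes described here are 33 members of the cell's defence against oxidants and electrophiles: the transcription factor NRF2 with its partners and targets, the enzymes and transporters of glutathione, the thioredoxin system, the enzymes that supply NADPH, the metallothioneins and the ABCC efflux pumps. They were matched by name, from a list drawn up with earlier results of these data known, and all 33 of 33 names were found among the 53546 genes of the count files. All 33 also passed the filter on low counts, so each was tested. The RNA came from non-parenchymal cells of the liver, the cells other than hepatocytes, such as sinusoidal endothelium, macrophages, stellate cells and leukocytes. The cells came from male SRA-/- mice (3 libraries) and male wild type mice (3 libraries), and every mouse of both groups had received acetaminophen at 400 mg/kg into the peritoneum 6 h earlier. SRA is scavenger receptor A, a macrophage receptor encoded by Msr1. The labels name neither strain, age nor the disrupted exon, and without untreated mice no value below is a response to acetaminophen.

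NRF2 (gene Nfe2l2) is held in the cytoplasm by KEAP1, which presents it for degradation. Electrophiles modify cysteines of KEAP1, NRF2 then accumulates, pairs with small MAF proteins in the nucleus and binds antioxidant response elements, from which BACH1 otherwise represses transcription. Acetaminophen is turned in the liver into a reactive quinone imine that is conjugated to glutathione and depletes it, which makes the synthesis of glutathione and the NRF2 response central to the injury by this drug.

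The libraries held 23757203 to 44003902 counts, at which 6 counts, or 3 fragments with both mates counted, equal 0.136 to 0.253 CPM, the counts of a gene relative to its library's total, on the usual scale for this unit. The 33 members took 0.648% to 0.821% of the counts in SRA-/- libraries and 0.684% to 0.876% in wild type libraries. Hepatocyte markers summed to more than any list of non-parenchymal markers in every library, against the labelled cell type, so the levels below include hepatocyte RNA. The 21 hepatocyte markers, all detected, summed to between 71970 and 122914 CPM in SRA-/- libraries and between 43729 and 102192 CPM in wild type libraries. Sinusoidal endothelial markers summed to 2315 to 3109 CPM in SRA-/- and 2140 to 4859 CPM in wild type libraries, and Kupffer cell and macrophage markers to 1021 to 2043 CPM in SRA-/- and 696 to 1924 CPM in wild type libraries. Msr1 (chromosome 8, 40034726 to 40095714, mm39) gave reads in every library, with 40.2, 33.6 and 42.0 CPM in SRA-/- replicates 1, 2 and 3 and 38.6, 73.5 and 113.6 CPM in wild type replicates 1, 2 and 3. A count over the whole gene does not check the genotype, because transcripts that make no receptor count as well.

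Promoter windows of RefSeq (build GRCm38.p6, 250 bases before to 50 bases after a gene's start, 300 bases in all) were found for 29 of the 33 members, and Gclc, Prdx6, Abcc1 and Abcc3 had none in the table. The core of the antioxidant response element was searched as TGACNNNGC on both strands. Counting 1 window a gene, 12 of 29 members (41.4%) held a match, against 12.5% of 27025 windows of all genes. Known targets of NRF2 were listed as members, so a share above that of all genes is no independent support for the list. Ggt1 held a match in 3 of its 4 windows, and Nqo1, Osgin1 and Slc7a11 held none in their only window. The metal response element core, searched as TGCACNC or TGCGCNC on both strands, had 3 matches in the window of Mt1, 4 in that of Mt2 and also 3 in that of Gclm, and 2 in a window each of G6pdx, Pgd and Abcc4. At least 1 match is held by 25.6% of 27025 windows of all genes, at least 2 by 7.11%, at least 3 by 2.0% and at least 4 by 0.503%. A match is a description of these letters and does not show that a factor binds there. Absence of a match does not show that a gene lacks the element. Variants of the core and sites outside these 300 bases were not searched. The stretches below show the match in capitals, written 5′ to 3′ on the strand of the gene, for Gclm and Txnrd1, long known as NRF2 targets, and for Prdx1, 1 of 2 members whose groups did not overlap.

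Gclm, chr3:122245397-122245457 (plus strand), match at -134 to -126 from the start, read on the opposite strand:
Gclm: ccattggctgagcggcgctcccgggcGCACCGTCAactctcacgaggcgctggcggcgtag
Txnrd1, chr10:82859088-82859148 (plus strand, the second of its windows), match at -92 to -84, read on the opposite strand:
Txnrd1: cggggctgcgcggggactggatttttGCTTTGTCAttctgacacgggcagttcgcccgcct
Prdx1, chr4:116685440-116685500 (plus strand), match at -133 to -125, read on the opposite strand, where the letters also contain TGACTCA, the core to which AP-1 factors bind:
Prdx1: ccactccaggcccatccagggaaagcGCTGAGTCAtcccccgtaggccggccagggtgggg

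The window of Slc7a11, the member with the largest value in SRA-/- relative to wild type libraries, held no match to TGACNNNGC. It is shown because it held 2 matches to TGATGNAA, the core of the amino acid response element to which ATF4 complexes bind, at -66 to -59 and, on the opposite strand, at -47 to -40. This core was chosen with the values of Slc7a11 known, and 3.97% of 32851 windows of all genes hold at least 1 match and 0.07% at least 2. The capitals mark both matches in chr3:50443564-50443863 (GRCm38.p6, minus strand):
Slc7a11: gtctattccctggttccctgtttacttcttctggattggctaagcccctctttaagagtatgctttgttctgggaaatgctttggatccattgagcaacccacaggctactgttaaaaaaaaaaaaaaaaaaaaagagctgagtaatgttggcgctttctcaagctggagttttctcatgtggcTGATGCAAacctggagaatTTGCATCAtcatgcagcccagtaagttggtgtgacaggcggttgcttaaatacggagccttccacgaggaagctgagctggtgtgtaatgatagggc

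The comparison asked whether non-parenchymal cells of SRA-/- mice differed from those of wild type mice in this defence after the same dose. No gene of NRF2 control, glutathione synthesis, thioredoxin, NADPH supply, metallothionein or efflux passed the test between the genotypes. None of the 33 members was past edgeR's quasi-likelihood test: every adjusted p was 0.9999, and 0 of 33 were called, where 0.0487% of the 20541 tested genes were. DESeq2 and limma-voom with quality weights also called 0. Before adjustment, 2 members had a p under 0.05 by edgeR, Slc7a11 (higher) and Ggt1 (lower), which is 2 of 33 beside 3.22% of all tested genes, while DESeq2 and voom each gave 3 (adding Osgin1), beside 2.36% of all genes by DESeq2 and 11.7% by voom.

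The log2 fold changes, SRA-/- over wild type, were above 0 for 12 members and below 0 for 21, with a median of -0.05. Over all tested genes 48.3% were above 0 and the median was -0.01. For 30 of 33 members the log2 fold change lay within 0.3 of 0, and for 30 its 95% interval lay within 1 log2 unit, a 2-fold change, of 0 on both sides. The interval reached 0.38 log2 units to either side of the estimate at its narrowest and 0.52 at the median, before any adjustment over genes. With 3 libraries a group the adjusted test called neither Slc7a11 at 1.69 nor Ggt1 at -1.83, so absence of a call does not show equal levels. Groups did not overlap for 2 of 33 members, Ggt1 and Prdx1, beside 7.3% of all tested genes. In bulk RNA, fewer cells of a type and less RNA per cell cannot be told apart.

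**Figure D1:**
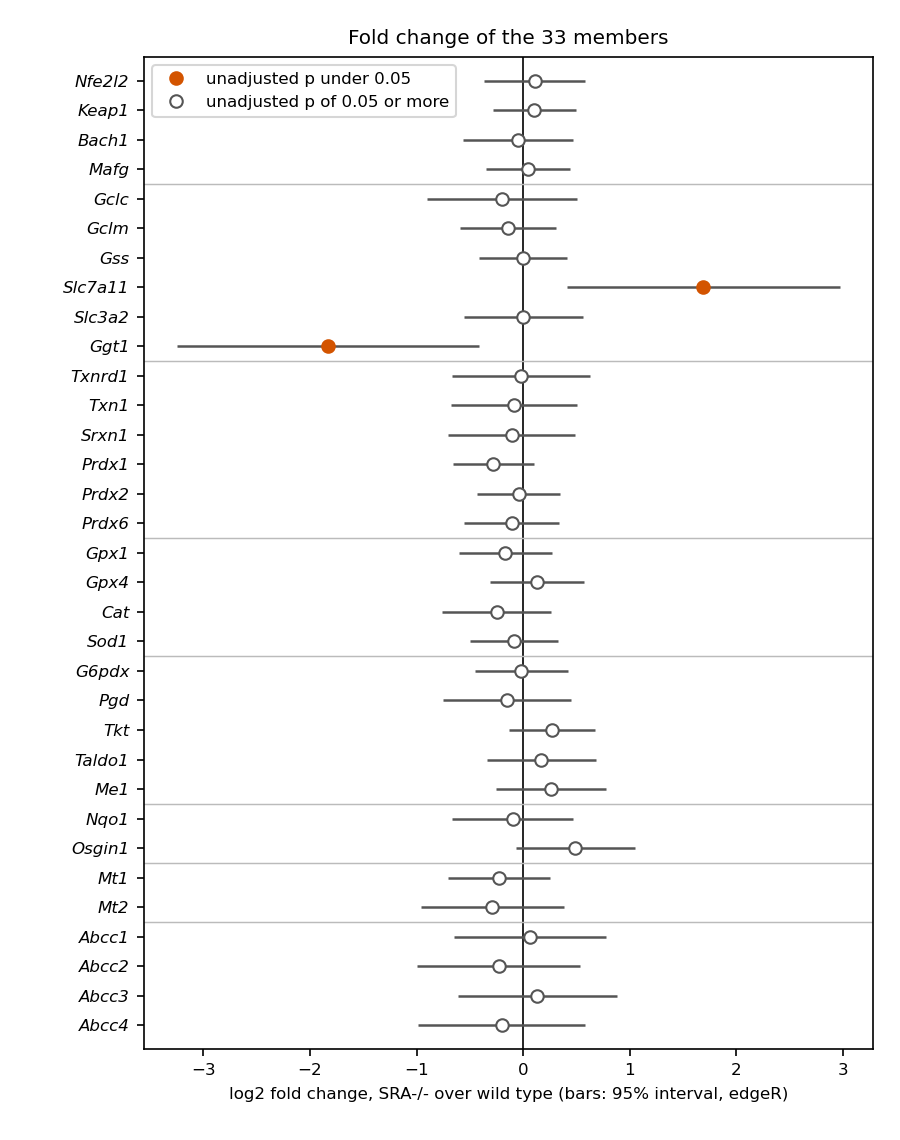
Log2 fold change of the 33 members (x axis, SRA-/- over wild type), in role order with grey lines between roles; bars are 95% intervals of edgeR's quasi-likelihood fit over 3 libraries a group. The intervals of Slc7a11 (0.41 to 2.97) and Ggt1 (-3.25 to -0.41) leave out 0 before adjustment over all genes, and those of the other 31 members include it.

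Among the regulators, Nfe2l2, which encodes NRF2 itself (chromosome 2, 75505857 to 75534985, mm39), had 132.0, 106.4 and 135.4 CPM in SRA-/- libraries and 88.9, 120.7 and 137.1 CPM in wild type libraries. The groups overlapped, wild type replicate 1 being the lowest and wild type replicate 3 the highest of the 6, and the log2 fold change was 0.11 ± 0.21 (SE). Keap1, its cytoplasmic inhibitor, had 41.4, 54.2 and 50.4 CPM in SRA-/- libraries and 48.1, 46.9 and 40.6 CPM in wild type libraries, with a log2 fold change of 0.11 ± 0.17 (SE). The groups overlapped, with SRA-/- replicate 2 the highest library and wild type replicate 3 the lowest. Bach1, the repressor at antioxidant response elements, averaged 254.1 ± 56.8 CPM in SRA-/- and 262.5 ± 36.0 CPM in wild type libraries (SD, n = 3 each). Mafg, a small MAF partner of both factors, averaged 177.3 ± 15.9 CPM in SRA-/- and 171.8 ± 7.46 CPM in wild type libraries (SD, n = 3 each). None of the 4 regulators differed by more than the spread between libraries.

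Glutathione synthesis starts with glutamate-cysteine ligase, whose catalytic subunit is Gclc and whose modifier subunit is Gclm. Gclc had 1211, 1259 and 2112 CPM in SRA-/- libraries and 1400, 2038 and 1812 CPM in wild type libraries. SRA-/- replicate 3, which also had the highest hepatocyte marker sum, was the highest library for Gclc, Gclm and Gss. The wild type group did not follow that order. Its replicate 1 had the highest hepatocyte marker sum of the group but the lowest Gclc and Gclm. The part of hepatocyte RNA in these values was not tested. Gclm had 113.7, 102.1 and 147.3 CPM in SRA-/- libraries and 115.4, 145.7 and 139.3 CPM in wild type libraries, and its groups overlapped as those of Gclc did. Gss, glutathione synthetase, which adds the glycine, averaged 57.8 ± 11.6 CPM in SRA-/- and 57.8 ± 2.67 CPM in wild type libraries (SD, n = 3 each). The log2 fold changes of the 3 genes were -0.20 ± 0.31, -0.14 ± 0.20 and -0.0015 ± 0.18 (SE).

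Slc7a11, the light chain xCT of the cystine and glutamate exchanger that brings in cystine for glutathione synthesis (chromosome 3, 49846975 to 50398063, mm39), stood apart from the other members. Its counts were 1807, 330 and 556 in SRA-/- libraries and 68, 244 and 398 in wild type libraries, which is 39.3, 11.02 and 25.2 CPM in SRA-/- libraries against 2.34, 9.26 and 11.8 CPM in wild type libraries. SRA-/- replicates 1 and 3 lay above every wild type library, while SRA-/- replicate 2 lay between wild type replicates 2 and 3, so the groups overlapped. The means were 25.2 ± 14.2 CPM in SRA-/- and 7.80 ± 4.89 CPM in wild type libraries (SD, n = 3 each), and edgeR's log2 fold change was 1.69 ± 0.57 (SE; unadjusted p 0.0150, adjusted p 0.9999). Neutrophil markers, 1 of several marker lists summed, gave a similar but not identical order of libraries. Of the 11 markers, 7 reached 10 counts in every library and none was at 0 in all. Their summed CPM was 148.9, 45.0 and 168.0 in SRA-/- replicates 1, 2 and 3 and 15.2, 34.6 and 47.9 in wild type replicates 1, 2 and 3. The sum was highest in SRA-/- replicate 3, whereas Slc7a11 was highest in SRA-/- replicate 1. Neutrophil RNA's part in the value of Slc7a11 was not tested. Without SRA-/- replicate 1 the log2 fold change was 1.21 and without wild type replicate 1 it was 1.27, with unadjusted p-values of 0.0736 and 0.0444 by edgeR. With no filter on low counts the unadjusted p of Slc7a11 was 0.1045 by edgeR. Without replicate 3 of both groups, a choice made after the values were seen, it was also not under 0.05. In each of the other alternatives it was under 0.05.

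Slc3a2, the heavy chain 4F2hc that carries xCT and several other light chains to the membrane, did not share this pattern. It had 188.5, 162.5 and 194.4 CPM in SRA-/- libraries and 121.7, 191.2 and 232.3 CPM in wild type libraries, a log2 fold change of 0.00 ± 0.25 (SE). All 3 SRA-/- libraries lay within the range of the wild type libraries.

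Ggt1, the gamma-glutamyl transferase that opens the breakdown of extracellular glutathione, was close to the limit of detection. Its counts were 9, 17 and 2 in SRA-/- libraries and 23, 20 and 52 in wild type libraries, or 0.196, 0.568 and 0.0908 CPM in SRA-/- libraries against 0.790, 0.759 and 1.54 CPM in wild type libraries. Every SRA-/- library lay below every wild type library, although 17 and 20 counts are close and SRA-/- replicates 1 and 3 are near or below the floor of detection. EdgeR's log2 fold change was -1.83 ± 0.63 (SE; unadjusted p 0.0167, adjusted p 0.9999). Ggt1 moved with RNA of the exocrine pancreas, a tissue in which this enzyme is also made. None of the 16 pancreatic acinar markers was at 0 in every library and 2 reached 10 counts in all 6, and their sum was 2.82, 327.2 and 2.23 CPM in SRA-/- replicates 1, 2 and 3 and 464.8, 478.9 and 961.7 CPM in wild type replicates 1, 2 and 3. As with Ggt1, SRA-/- replicate 2 was the highest SRA-/- library and wild type replicate 3 the highest of all, and the part of pancreatic RNA in the value was not tested. Leaving out SRA-/- replicate 2 gave a log2 fold change of -2.72, and leaving out SRA-/- replicate 1 gave -1.58 (unadjusted p 0.0622, edgeR). Without wild type replicate 3 alone, the unadjusted p by edgeR was also not under 0.05. Leaving out both wild type replicate 3 and SRA-/- replicate 3, again chosen after the values were seen, gave -1.06 with an unadjusted p of 0.151 by edgeR.

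**Figure D2:**
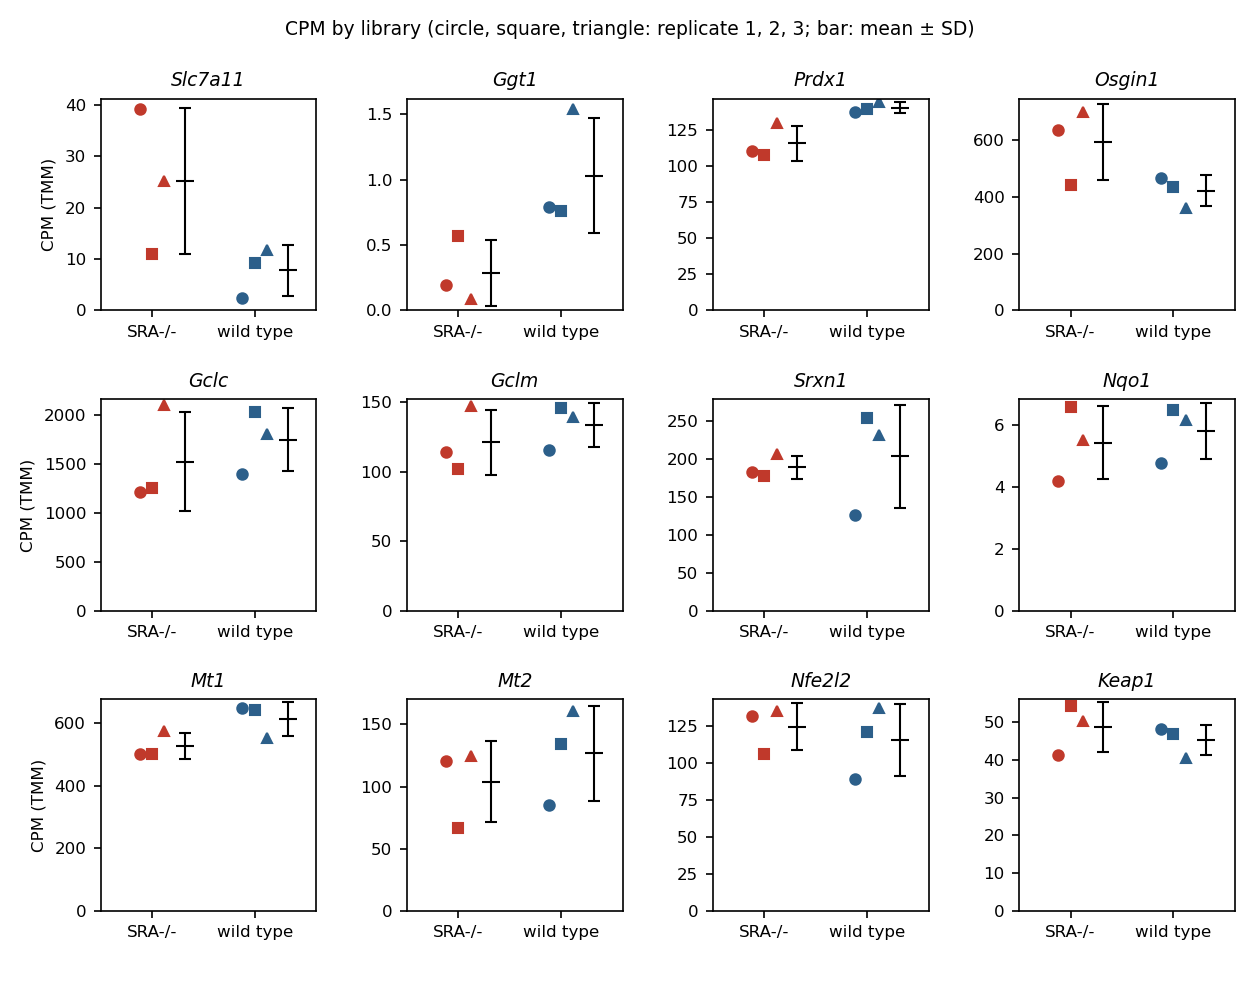
CPM scaled by TMM factors (y axis, from 0) of 12 members in SRA-/- (red, left) and wild type (blue, right) libraries; circles, squares and triangles are replicates 1, 2 and 3, and black bars give the mean ± SD. Slc7a11 ran from 11.02 to 39.3 CPM in SRA-/- libraries and from 2.34 to 11.8 CPM in wild type libraries, and Prdx1 from 107.6 to 130.1 CPM in SRA-/- libraries and from 137.8 to 144.8 CPM in wild type libraries.

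The thioredoxin and peroxiredoxin genes all had log2 fold changes below 0, between -0.28 and -0.02, and 0 of 6 had an unadjusted p under 0.05. Of the 6, Prdx1 alone kept its sign in all 17 alternatives, so the shared direction depends on the processing. Prdx1, a peroxiredoxin that reduces hydrogen peroxide with electrons from thioredoxin (chromosome 4, 116542741 to 116558019, mm39), had 110.7, 107.6 and 130.1 CPM in SRA-/- libraries and 137.8, 140.1 and 144.8 CPM in wild type libraries. The highest SRA-/- library was below the lowest wild type library. The gap was small beside the spread that edgeR estimates, with a log2 fold change of -0.28 ± 0.17 (SE) and an adjusted p of 0.9999 (unadjusted p 0.135). The value ran from -0.37 to -0.23 over the 17 alternatives tried.

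Srxn1, sulfiredoxin, which restores overoxidised peroxiredoxins, had 182.3, 177.0 and 206.1 CPM in SRA-/- libraries and 126.0, 252.8 and 230.5 CPM in wild type libraries. The SRA-/- libraries stayed inside the wider wild type range. The same was seen for Txn1, thioredoxin, at 47.5, 46.7 and 49.8 CPM in SRA-/- libraries against 30.03, 55.9 and 66.7 CPM in wild type libraries. It also held for Txnrd1, the reductase that recharges thioredoxin with electrons of NADPH, at 750.3, 551.0 and 805.2 CPM in SRA-/- libraries against 483.7, 790.3 and 864.5 CPM in wild type libraries. Prdx2, abundant in red cells, averaged 22.0 ± 2.998 CPM in SRA-/- and 22.7 ± 0.84 CPM in wild type libraries, and Prdx6, which uses glutathione, 98.4 ± 16.8 CPM in SRA-/- and 105.9 ± 15.6 CPM in wild type libraries (SD, n = 3 each).

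Of the 4 listed peroxidase, catalase and dismutase genes, 0 were called and 0 had groups that did not overlap. Their 95% intervals reached down to -0.76 (Cat) and up to 0.58 log2 units (Gpx4), so equal levels were not shown. Cat, catalase of peroxisomes, had 319.4, 325.7 and 392.7 CPM in SRA-/- libraries and 508.4, 378.3 and 345.9 CPM in wild type libraries, with a log2 fold change of -0.25 ± 0.23 (SE). The groups overlapped, and wild type replicate 1 was the highest library. Gpx1, the cytosolic glutathione peroxidase, averaged 218.6 ± 31.5 CPM in SRA-/- and 245.2 ± 12.01 CPM in wild type libraries (SD, n = 3 each). Gpx4, which reduces lipid peroxides in membranes and so protects from ferroptosis, averaged 19.7 ± 3.31 CPM in SRA-/- and 18.0 ± 2.47 CPM in wild type libraries. Sod1, the copper and zinc superoxide dismutase, averaged 152.5 ± 19.97 CPM in SRA-/- and 161.8 ± 10.7 CPM in wild type libraries.

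NADPH keeps both glutathione and thioredoxin reduced, and none of its 5 supply genes passed the test. Their directions were not stable, as Tkt alone kept its sign in all 17 alternatives. G6pdx and Pgd, the oxidative enzymes of the pentose phosphate path, had log2 fold changes of -0.02 ± 0.19 and -0.15 ± 0.27 (SE). Tkt and Taldo1, transketolase and transaldolase of its non-oxidative arm, had 0.27 ± 0.18 and 0.17 ± 0.23, and Me1, cytosolic malic enzyme, 0.26 ± 0.23 (SE). Tkt had 66.7, 69.0 and 77.3 CPM in SRA-/- libraries and 61.6, 67.05 and 48.1 CPM in wild type libraries, where wild type replicate 2 lay just above the lowest SRA-/- library. Pgd had its lowest value, 54.9 CPM, in wild type replicate 1 and its highest, 120.5 CPM, in wild type replicate 3, with 81.7, 77.9 and 90.8 CPM in SRA-/- libraries between them.

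Nqo1, the quinone reductase most often used as a readout of NRF2 (chromosome 8, 108114857 to 108129838, mm39), was among the lowest members. It had 4.20, 6.58 and 5.54 CPM in SRA-/- libraries and 4.78, 6.49 and 6.16 CPM in wild type libraries, a log2 fold change of -0.10 ± 0.25 (SE) with overlapping groups. Osgin1, an oxidative stress-induced growth inhibitor, was far more abundant. It had 635.5, 442.9 and 699.2 CPM in SRA-/- libraries and 467.0, 435.4 and 361.8 CPM in wild type libraries. SRA-/- replicates 1 and 3 lay above all wild type libraries, and SRA-/- replicate 2 lay between wild type replicates 1 and 2. Its log2 fold change was 0.49 ± 0.25 (SE), and its p before adjustment was 0.0771 by edgeR, 0.0422 by DESeq2 and 0.0158 by voom, none of which called it.

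Metallothioneins bind zinc and copper through their many cysteines and scavenge oxidants. Mt1 (chromosome 8, 94905710 to 94906955, mm39) had 502.3, 502.0 and 575.1 CPM in SRA-/- libraries and 648.1, 641.6 and 552.1 CPM in wild type libraries. Only wild type replicate 3 lay inside the SRA-/- range, and the log2 fold change was -0.22 ± 0.21 (SE). Mt2 had 120.5, 66.3 and 124.5 CPM in SRA-/- libraries and 84.9, 133.9 and 161.0 CPM in wild type libraries, with a log2 fold change of -0.29 ± 0.30 (SE). The 2 genes, neighbours on the chromosome, did not order the libraries alike: wild type replicate 1 was the highest for Mt1 and the second lowest for Mt2.

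The efflux pumps varied more within the wild type group than between genotypes. Abcc2, the canalicular pump of hepatocytes that exports glutathione conjugates into bile, had 811.8, 773.4 and 1185 CPM in SRA-/- libraries and 1527, 1049 and 665.8 CPM in wild type libraries. Abcc3, the basolateral pump, had 396.5, 513.2 and 563.3 CPM in SRA-/- libraries and 617.4, 478.3 and 245.3 CPM in wild type libraries. Both were highest in wild type replicate 1 and lowest in wild type replicate 3, as was the hepatocyte list within the wild type group, whose summed CPM was 77715, 71970 and 122914 in SRA-/- replicates 1, 2 and 3 and 102192, 84095 and 43729 in wild type replicates 1, 2 and 3. Abcc1 and Abcc4, pumps found on many cell types, ran the other way, with 37.1, 30.96 and 40.4 CPM for Abcc1 in SRA-/- libraries and 17.6, 37.7 and 48.2 CPM in wild type libraries. Abcc4 had 39.7, 25.6 and 40.7 CPM in SRA-/- libraries and 20.6, 40.4 and 60.8 CPM in wild type libraries. The log2 fold changes of Abcc1 to Abcc4 were 0.07 ± 0.32, -0.23 ± 0.34, 0.14 ± 0.33 and -0.20 ± 0.35 (SE). Once the fit included the hepatocyte marker mean, that of Abcc2 was -0.41 (unadjusted p 0.0355, edgeR) and Abcc2 was still not called. Without wild type replicate 1 it was 0.11, on the other side of 0.

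**Figure D3:**
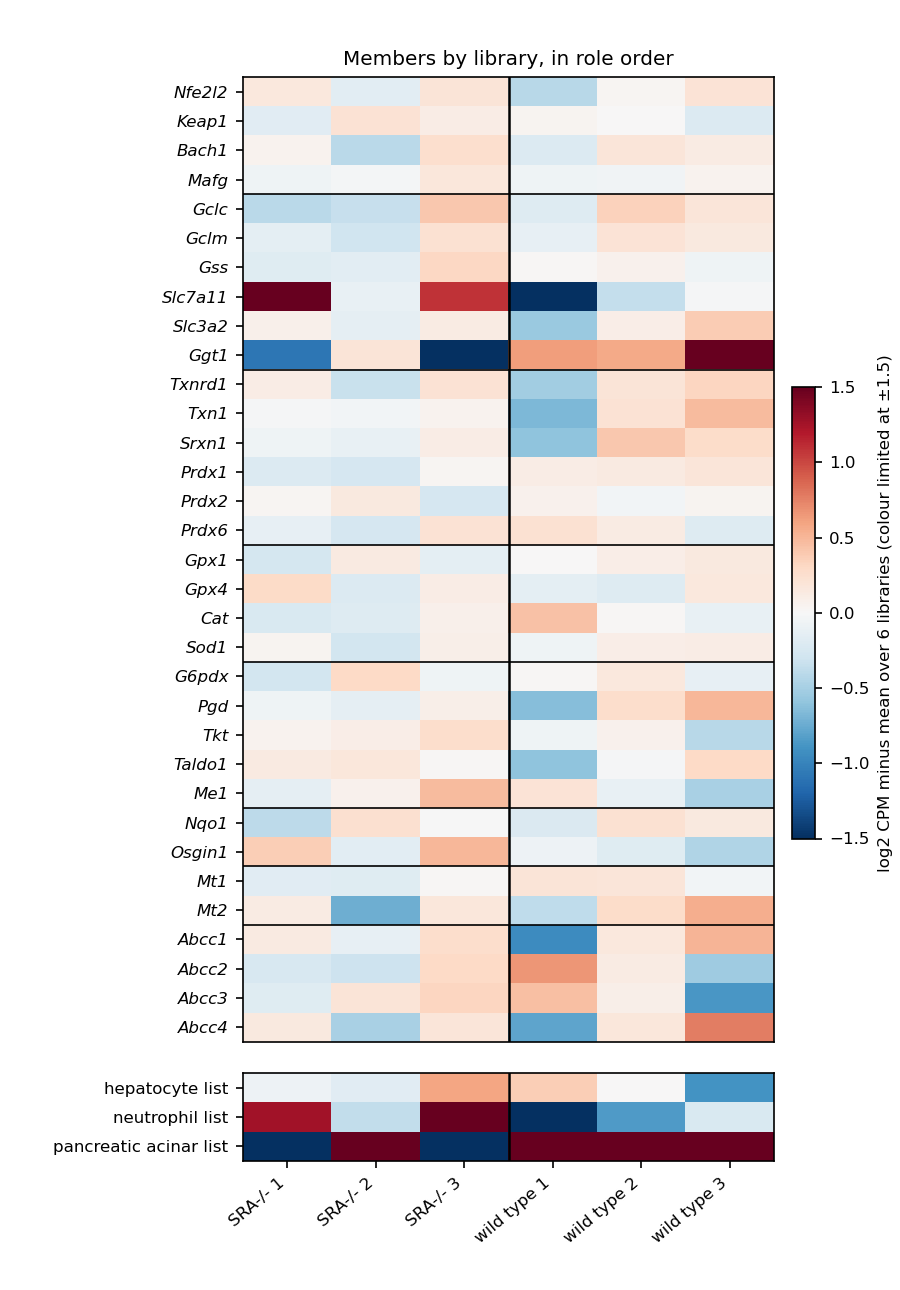
Log2 CPM of each member minus its mean over the 6 libraries (colour, limited at ±1.5), with SRA-/- libraries left of wild type libraries and lines between roles; the 3 lower rows are medians of marker lists. Wild type replicate 1 is the lowest library for 10 members and wild type replicate 3 the highest for 13, and no block of members separates the genotypes.

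Across libraries the members thus showed a spread that the genotype labels did not follow. Wild type replicate 1 was the lowest of the 6 libraries for 10 of 33 members (30.3%, beside 22.8% of all tested genes), and wild type replicate 3 the highest for 13 (39.4%, beside 23.9%). For 8 members (24.2%, beside 11% of all tested genes) both held: Nfe2l2, Slc3a2, Txnrd1, Txn1, Pgd, Taldo1, Abcc1 and Abcc4. SRA-/- libraries were extremes as well. SRA-/- replicate 1 was the lowest for 7 members (21.2%, beside 12.2% of all) and SRA-/- replicate 2 for 8 (24.2%, beside 15.3%). SRA-/- replicate 3 was the highest for 8 (24.2%, beside 16.2%) and the lowest for 2 (6.1%, beside 16.9%). Set against each member's own 6-library mean, the median member lay at -0.07, -0.13 and 0.17 log2 units in SRA-/- replicates 1, 2 and 3 and at -0.08, 0.12 and 0.14 in wild type replicates 1, 2 and 3. Wild type replicate 1 was also the library with the lowest sums of macrophage, endothelial and neutrophil markers, and the part of cell composition in this spread was not tested.

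Per kilobase of exon the members spanned more than 3 orders of magnitude. Mt1 was highest, at 422.5 CPM per kb in SRA-/- and 492.7 in wild type libraries, followed by Gclc at 405.5 in SRA-/- and 464.7 in wild type, Mt2 at 176.5 in SRA-/- and 215.4 in wild type, and Osgin1 at 221.6 in SRA-/- and 157.6 in wild type libraries. The per-library ranges of Mt1 and Gclc overlapped, as did those of Mt2, Osgin1, Gpx1 and Cat, so these neighbours in the order do not differ beyond their spread. Lowest were Nqo1 at 3.503 in SRA-/- and 3.74 in wild type, Abcc1 at 2.40 in SRA-/- and 2.29 in wild type, Slc7a11 at 1.81 in SRA-/- and 0.560 in wild type, and Ggt1 at 0.0835 in SRA-/- and 0.302 CPM per kb in wild type libraries. The summed exon length of Slc7a11 in the annotation is 13922 bases, which lowers its level on this scale.

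**Figure D4:**
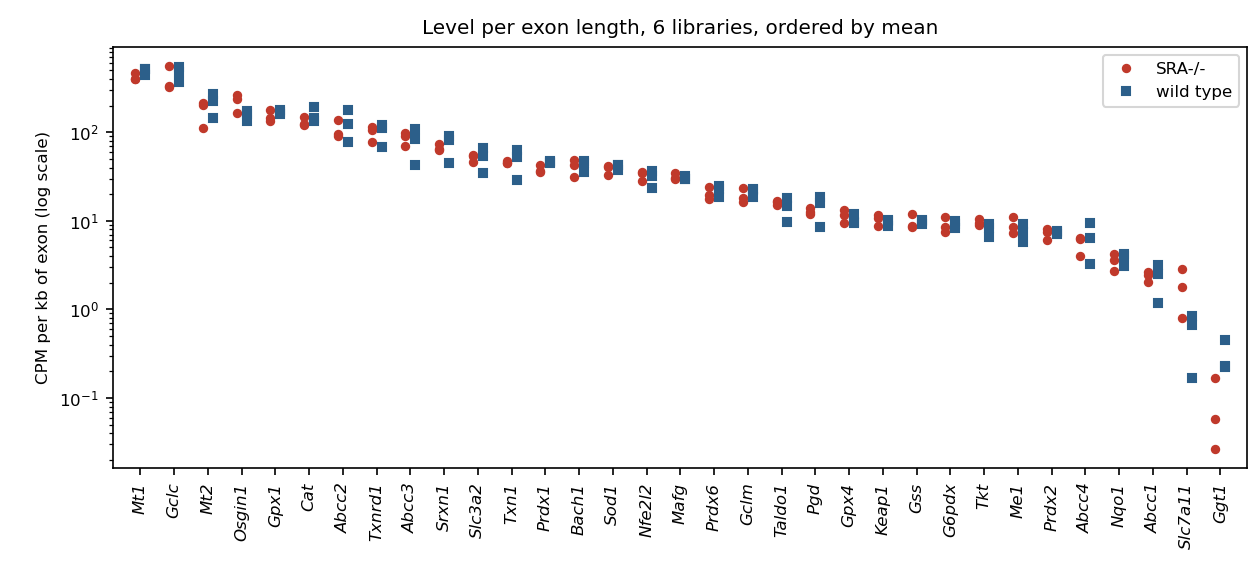
CPM per kb of exon (y axis, log scale) of each member in SRA-/- (red circles) and wild type (blue squares) libraries, ordered by the mean. Mt1 and Gclc lead, Slc7a11 and Ggt1 close the order, and the groups overlap for all members but Prdx1 and Ggt1.

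Of 75 other genes of the same pathways, 71 were tested and 0 were called by edgeR, each with an adjusted p of 0.9999. Of the 71, 28 had log2 fold changes above 0 and 43 below, with a median of -0.05, and 4 had an unadjusted p under 0.05, beside 3.22% of all tested genes. Groups did not overlap for 1 of the 71, Nfe2, beside 7.3% of all tested genes. Nfe2, the blood cell relative of NRF2, had 4.35, 2.10 and 3.36 CPM in SRA-/- libraries and 2.10, 1.48 and 1.69 CPM in wild type libraries, a log2 fold change of 0.90 ± 0.34 (SE). The lowest SRA-/- library, at 2.104 CPM, barely exceeded the highest wild type library, at 2.096 CPM. Gsr, glutathione reductase, had 81.0, 78.3 and 95.2 CPM in SRA-/- libraries and 89.3, 142.1 and 161.2 CPM in wild type libraries, a log2 fold change of -0.63 ± 0.23 (SE, unadjusted p 0.0246). Cbr1, a carbonyl reductase, had -0.57 ± 0.22, and Txnip, the inhibitor of thioredoxin, 0.60 ± 0.25, with SRA-/- replicate 3 at 109.1 CPM inside the wild type range. Abcb1a, a multidrug pump, had 0.48 ± 0.26 and Ggt7 -0.58 ± 0.34 (SE). Hmox1, the heme oxygenase that is a standard NRF2 and BACH1 target, was chosen after its values were seen and had 884.1, 843.3 and 1131 CPM in SRA-/- libraries against 747.4, 1172 and 947.6 CPM in wild type libraries, which overlapped.

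Some values carry limits of annotation. Exons of 9 members overlap exons of other genes (Keap1, Gclm, Gss, Prdx2, G6pdx, Tkt, Me1, Mt2 and Mafg), and the counting ignored strand. Prdx2, Mt1, Mt2, Nqo1 and Osgin1 lie on the chromosome of Msr1, between 45.6 and 80.1 Mb from it. Pseudogenes named after 5 members (Txn1, Prdx1, Prdx2, Prdx6 and Gpx4) are in the annotation, and the counting command did not include multi-mapping reads, so levels of these genes are uncertain.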

How the data were processed

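Per the labels' protocols, ribosomal RNA was depleted from total RNA of liver non-parenchymal cells before library construction, in 3 SRA-/- and 3 wild type libraries. The deposited values are raw counts, 1 file per library, which the authors made with featureCounts 2.0.2 over exons by gene name on GENCODE vM26, without strand, per the file headers. STAR, FastQC and build mm39 come from the submitters' processing notes. For STAR no version is given in the sources used here. The deposited command counts each mate, so 2 counts are mostly 1 fragment and floors of 6 counts cover counting error only.

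The counts were tested with edgeR 4.0.16 under R 4.3.3 (filterByExpr, TMM factors of 0.896 to 1.08, glmQLFit with robust dispersion, glmQLFTest on group), with Benjamini-Hochberg adjustment over 20541 of 53546 genes and a threshold of 0.05. Each standard error is the log2 fold change over the root of its F value. CPM values use TMM-scaled library sizes, marker sums use library totals, and deviations use log2 CPM with a prior count of 2. Exact permutation tests of 3 against 3 libraries cannot give a p below 0.1. DESeq2 1.42.0 and limma 3.58.1 (voom with quality weights) were alternatives. Groups come from the titles, which call the replicates biological without naming the mice, so p-values measure the spread between these libraries. Members and gene lists were chosen with earlier results of these data known. By a set rule the text describes all members, with values per library and the test for those whose groups do not overlap, those with an unadjusted p under 0.05 and the main regulators and targets, and the 6 other pathway genes with the smallest p; Hmox1 was added. The alternatives also covered scaling by size factors or by library totals, other filters on low counts, removal of hepatocyte and mitochondrial genes, the hepatocyte list as covariate, the replicate block and leaving out each library in turn. A further 2, each without a pair of libraries, were added after seeing the data. Motifs were searched in RefSeq windows, and figures were drawn with matplotlib 3.10.9.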

Additional observations from a re-analysis of the deposited data

How the results depend on the processing

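Of 17 alternatives, 16 called 0 members, and leaving out wild type replicate 1 and SRA-/- replicate 2 together, a choice made after seeing the data, called 1, Slc7a11. SRA-/- replicate 2 is the one SRA-/- library within the wild type range of Slc7a11, so that call depends on the outcome itself and supports nothing, and the same fit called 101 genes in place of 10. Leaving out 1 library at a time always called 0. The count over all genes, 10 as reported by edgeR, was 59 with DESeq2, 99 with limma-voom, 32 with no filter on low counts and 3 to 40 with 1 library left out at a time (lowest without SRA-/- replicate 3, highest without SRA-/- replicate 2, and 4 without SRA-/- replicate 1 or wild type replicate 2). Members with groups that do not overlap numbered 2 as reported (7.3% of all tested genes), 4 with library totals alone (6.6% of all), 3 to 9 with 1 library left out at a time (12.1% to 24% of all, since smaller groups overlap less), 12 without that pair (38.6% of all) and 11 without the other pair chosen after seeing the data, replicate 3 of both groups (30.9% of all). The replicate block left 5 genes and 0 members called, with Slc7a11 at a log2 fold change of 1.69 ± 0.68 (SE). Libraries that share a number correlated at -0.287, -0.143 and -0.131 in their deviations, and those with different numbers at -0.086 to 0.259. Libraries that share a number were thus not more alike. With 3 libraries a group, each group centred on its own mean, these values cannot exclude a pairing. Of 560 log2 fold changes of single members, 541 moved by less than 1 SE, 18 by more and 1 passed the test, and 13 members kept their sign in all 17 alternatives. Every alternative refits all or some of the same 6 libraries, so shifts below 1 SE do not show that the values are accurate. Ggt1, the one member with under 10 counts in some library, could not be tested with a filter of 1 CPM in 3 libraries.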

Other observations

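Ratios between partner genes, per length, differed by less than their spread between libraries for 4 of 5 pairs. The catalytic to modifier subunit ratio Gclc to Gclm was 20.8 ± 3.07 in SRA-/- and 21.8 ± 1.55 in wild type libraries (SD, n = 3 each). Nfe2l2 to Keap1 gave 3.23 ± 0.766 in SRA-/- and 3.21 ± 0.945 in wild type libraries. Txnrd1 to Txn1 gave 2.17 ± 0.360 in SRA-/- and 2.14 ± 0.236 in wild type libraries, and Mt1 to Mt2 gave 2.57 ± 0.872 in SRA-/- and 2.49 ± 1.01 in wild type libraries. The heavy to light chain ratio Slc3a2 to Slc7a11 was 18.9, 58.2 and 30.4 in SRA-/- libraries and 205.4, 81.4 and 77.8 in wild type libraries, without overlap. This last ratio rests on the values of Slc7a11, whose own groups overlapped (11.02 CPM in SRA-/- replicate 2, 11.8 CPM in wild type replicate 3). Slc3a2 had 162.5 and 232.3 CPM in the same libraries, which set the ratios apart. The ratio was given no test, and no share of ratios without overlap was computed for other genes.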
